A study of Saccharomyces cerevisiae with 12 samples.

Results

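The effect of doxycycline itself on the transcriptome was examined in BY4742, a haploid laboratory strain of *Saccharomyces cerevisiae* that carries no tet-off promoter. The members are all genes of the wild-type table whose status was OK in both conditions, which were 7126 of the 7130 genes listed, and 6560 of these had a value above 0 in both conditions and so a ratio. The untreated wild type and the wild type grown with 1 µg/ml doxycycline share the genotype *MATα his3Δ1 leu2Δ0 lys2Δ0 ura3Δ0* and were grown in YPD, a rich glucose medium, overnight to mid-log phase, with 3 cultures per condition. In the study these 6 samples are the control for 6 more of tetO-*GLN4*, made in the same background, with *GLN4* (glutaminyl-tRNA synthetase) placed behind a tet-off promoter that doxycycline shuts off, so they address what the drug does when no gene is under its control. All wild-type cultures are of a single strain, medium and dose, and RNA was taken at a single stage of growth.

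Doxycycline is a tetracycline antibiotic. Tetracyclines bind the small subunit of bacterial ribosomes, can act on the related ribosomes of mitochondria, and bind divalent metal ions. In tet-off systems the drug releases an activator, built on a bacterial repressor, from its operator and so stops transcription of the gene placed behind it. Yeast answers low zinc through the activator Zap1, low iron through Aft1 and Aft2, and many stresses through Msn2 and Msn4, which bind short elements upstream of their target genes.

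Expression was given as FPKM, a fragment count scaled by transcript length and by the number of mapped fragments. The deposited table holds the authors' combined value of the 3 cultures for each gene and condition with a 95% confidence interval, so the spread between cultures is not known, the read depth is unknown, and no p-value is given for any difference. A gene was called different when its intervals in the 2 conditions lay apart, and each log2 ratio (doxycycline over untreated) was given an error, for which the upper arm of the interval in each condition was read as 2 SDs. In bulk RNA, fewer cells that express a gene and less of its RNA per cell cannot be told apart.

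The strain was checked first. *LEU2*, *LYS2* and *URA3*, which are deleted in BY4742, were listed at 0 in both conditions. *HIS3*, whose locus overlaps that of *DED1* in the table, was at 410.03 and 413 FPKM, so its partial deletion could not be checked. The genes that mark *MATα* cells were abundant, with *MF(ALPHA)1*, the main α-factor precursor, at 12098 FPKM and *STE3*, the receptor for a-factor, at 563 FPKM without the drug. Of the *MATa* genes, *STE2*, the α-factor receptor, was at 8.64 FPKM and *BAR1*, the α-factor protease, at 3.87 FPKM. *MFA1*, an a-factor gene of 111 bases, was not low, at 88.3 FPKM (95% interval 32.3 to 144). *MFA2*, the other a-factor gene, was also not under 10 FPKM, so neither a-factor gene met this check. *GLN4* itself, under its own promoter in this strain, was at 199 FPKM (95% interval 157 to 241) without doxycycline and 199 FPKM (158 to 241) with it.

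Across the wild-type transcriptome the 2 conditions were close. The paper, by its own Cuffdiff test, reported no gene with a significant difference between them. The interval rule used here is another criterion, and its calls are descriptions. The median log2 ratio of the 6560 genes was -0.0031, 3161 genes were above 0 and 3399 below (51.8%), and the middle 90% of genes lay between -0.21 and 0.20. Intervals lay apart for 10 genes (0.152%), 4 lower and 6 higher with doxycycline, and 74 genes (1.13%) differed at least 2-fold, 40 higher and 34 lower. The median error of a log2 ratio was 0.22, and the ratio was beyond its own error in 98 genes in the lower direction (1.49%) and in 62 in the higher (0.945%).

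Most of the large ratios belonged to short genes or to genes at low levels. Of the 74 genes that differed 2-fold, 40 were under 300 bases long, as were 481 (7.33%) of all 6560. Of the 74, 57 were under 10 FPKM in a condition, against 896 (13.7%) of all, and 27 overlapped another listed gene, against 1238 (18.9%) of all. Among genes of at least 10 FPKM, the SD of the log2 ratio across genes was 0.70 for the 61 genes under 100 bases and 0.061 for the 1115 genes of 2000 bases or more. In every length class this scatter was smaller than the median error the intervals assign to a single gene, which was 0.99 under 100 bases and 0.21 at 2000 bases or more.

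**Figure D1:**
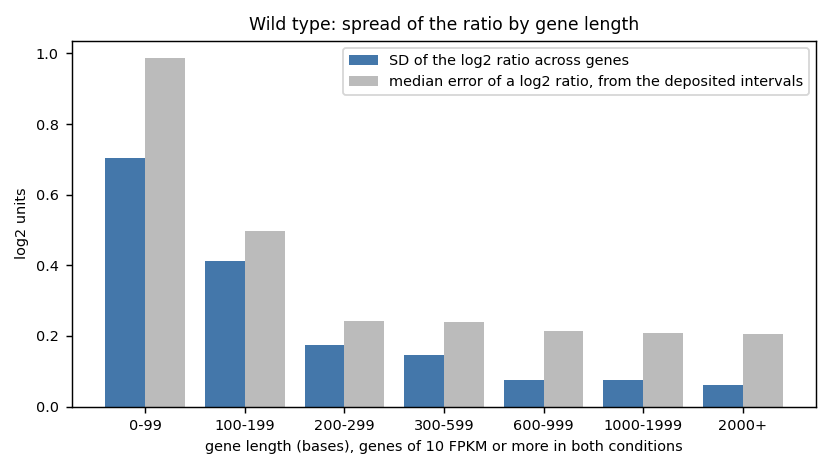
Spread of the wild-type log2 ratio by gene length, in bases, for genes of at least 10 FPKM in both conditions. Dark bars give the SD of the ratio across genes and grey bars the median error of a single ratio from the deposited intervals. The SD across genes falls from 0.70 under 100 bases to 0.061 at 2000 bases or more, while the error settles at 0.21.

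Ranks were therefore taken among 4411 genes with at least 10 FPKM in both conditions, at least 300 bases and a locus that overlaps no other gene. These are called ranked genes below, and their lowest and highest 221 (5.01% each) the low and the high tail. The minimum length and the tails were chosen after the values had been seen. Among ranked genes the SD of the log2 ratio was 0.077, 86.2% lay within 0.1 of 0, none differed 2-fold and only 2 differed 1.5-fold, *ZRT1* and *YLR297W*, both lower with doxycycline. The low tail began at -0.13 and the high tail at 0.10.

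**Figure D2:**
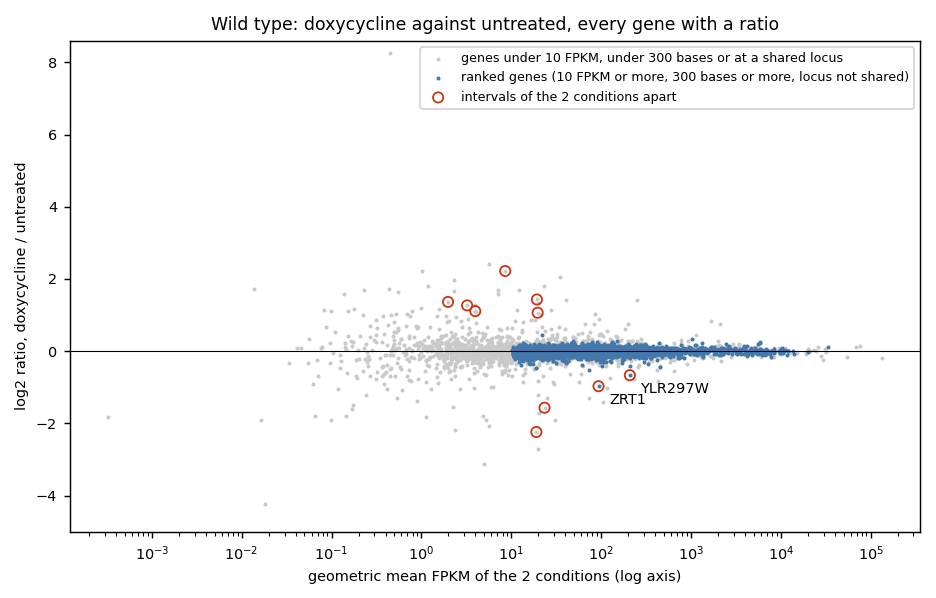
Log2 ratio of doxycycline to untreated in wild type against the geometric mean FPKM of both conditions (log axis), 1 point per gene. Grey points are genes under 10 FPKM, under 300 bases or at a shared locus, blue points the 4411 ranked genes, and red circles the 10 genes whose intervals lay apart. Apart from *ZRT1* and *YLR297W*, the circled genes lie outside the ranked set.

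The 2 longer genes with intervals apart were both lower. *ZRT1* (chromosome VII, positions 20978 to 22108 in R64), the high-affinity zinc transporter of the plasma membrane, was at 131 FPKM (95% interval 101 to 161) without doxycycline and at 66.9 FPKM (53.2 to 80.6) with it, a log2 ratio of -0.97 (error 0.22) or a change of -49%. It had the lowest ratio of all ranked genes. *YLR297W* (chromosome XII, positions 724044 to 724433), a gene of unknown function, fell from 263 FPKM (207 to 319) to 166 FPKM (129 to 203), a log2 ratio of -0.67 (error 0.22).

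The other 8 genes with intervals apart were 71 to 141 bases long. They were the tRNA genes *tG(GCC)D2* (log2 ratio 1.06, error 0.09) and *tA(AGC)K1* (1.43, error 0.09), and the short open reading frames *YGL006W-A* (1.11), *YBR296C-A* (1.27), *YNL067W-B* (1.36) and *YEL008C-A* (2.22), all higher, with *YAR035C-A* (-2.24) and *YHR022C-A* (-1.57) lower. The errors of both tRNA genes were below the smallest among ranked genes, 0.20. Yet the tRNA genes were at only 13.6 and 11.8 FPKM without the drug. The errors of *YAR035C-A* (0.13) and *YHR022C-A* (0.14) were also below 0.20. The higher open reading frames were at 1.23 to 3.97 FPKM without the drug, and the locus of *YEL008C-A* overlaps another listed gene. Libraries were made from polyadenylated RNA, and 283 of the 299 listed tRNA genes were at 0 in both conditions. Short genes without a shared locus also filled most of the extremes at 10 FPKM or more in both conditions. Lowest, beside *YHR022C-A* and *ZRT1*, were *tA(AGC)K2* (-1.91, error 1.53), *SNR52* (-1.72, error 1.23), *YMR315W-A* (error 0.83), *tH(GUG)K* (-1.29), *YMR272W-B* (-1.22), *YAL037C-A* (-0.90), *YOR293C-A* (-0.87) and *YGL007C-A* (-0.85). Highest, beside the tRNA genes, were *YBL071C-B* (1.79, error 0.98), *SNR56* (1.42, error 2.01), *YIL046W-A* (1.34), *SNR75* (1.04), *SNR69* (1.00), *SNR40* (0.90), *SNR48* (0.79) and *YLR466C-B* (0.77). The errors of these 16 genes ran from 0.66 to 2.16, and the intervals of the conditions overlapped.

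Below *ZRT1* and *YLR297W*, the lowest ranked genes had overlapping intervals. They were chosen here after their values had been seen. *YPR157W*, of unknown function, was at 88.2 FPKM (70.7 to 106) untreated and 62 (49.4 to 74.5) in the drug, its log2 ratio being -0.51 (error 0.20). *YRO2*, a plasma membrane protein related to *HSP30*, was at 529 and 392 FPKM (-0.43, error 0.21). *PHM8*, a nucleotide phosphatase, was at 119.6 and 89.4 FPKM (-0.42, error 0.21). *YER130C*, a zinc finger protein, was at 241 and 182 FPKM (-0.41, error 0.20), and *FMP48*, a kinase found with mitochondria, at 69.2 and 53.2 FPKM (-0.38, error 0.21). *TPO3* and *TPO2*, plasma membrane exporters of polyamines, stood at positions 18 and 23 from the bottom with log2 ratios of -0.31 (error 0.20) and -0.29 (error 0.21). The remaining ranked genes among the 20 lowest were *YHR130C*, *PAU17*, *SPI1*, *COS1*, *CYC7*, *FMP23*, *YJL144W*, *HSP82*, *YDR222W*, *EEB1*, *RTC3* and *YBR285W*, with ratios up to -0.30.

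The highest ranked genes were closer to 0 than the lowest. The highest was *SCR1*, the RNA of the signal recognition particle, at 18.7 FPKM (13.8 to 23.5) untreated and 25.4 (19 to 31.9) in the drug, its log2 ratio being 0.45 (error 0.26). It codes for no protein, and in libraries of polyadenylated RNA its level and ratio are uncertain. *OLE1*, the only fatty acid desaturase of this yeast, followed with 922 FPKM (716 to 1127) and 1166 (904 to 1427), a ratio of 0.34 (error 0.23). *CYC1*, the main cytochrome c, was at 136 and 166 FPKM (0.29, error 0.23), *IZH4*, a membrane protein of zinc homeostasis, at 44.3 and 53.3 FPKM (0.27, error 0.22) and *HXT2*, a high-affinity hexose transporter, at 122 and 145 FPKM (0.25, error 0.20). All intervals of these 5 genes overlapped between the conditions. *YHB1*, a flavohaemoglobin that detoxifies nitric oxide, the histone H4 genes, *INO2*, *PLB2*, *MIG1*, *LEU1*, *MET6*, *KNH1*, *NRM1*, *FKH1*, *PAU2*, *YDR274C*, *YIL163C* and *FAS1* completed the 20 highest, with ratios from 0.21 to 0.27. The subunits of fatty acid synthase, *FAS1* (0.22) and *FAS2* (0.18), and acetyl-CoA carboxylase, *ACC1* (0.16), make the substrate of the desaturase Ole1 and were all in the high tail, at positions 19, 37 and 64 from the top. These 3 were picked out after their values had been seen.

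**Figure D3:**
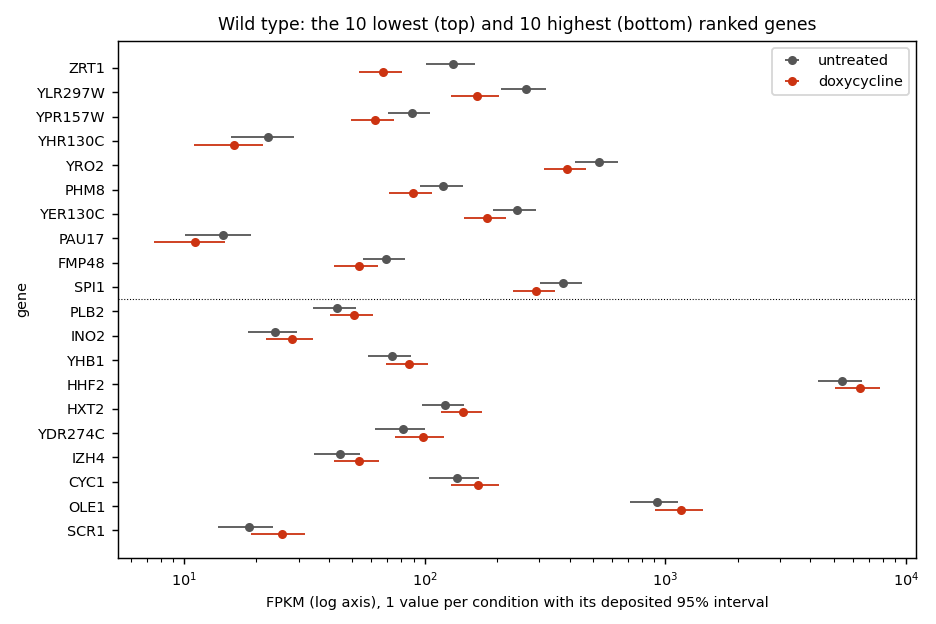
FPKM (log axis) of the 10 lowest and 10 highest ranked genes in wild type, untreated in grey and with doxycycline in red, each point the authors' combined value of 3 cultures and each line its deposited 95% interval. Only *ZRT1* and *YLR297W* have intervals that do not touch.

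Gene lists were compared next. They were drawn up by function with earlier results of these data known, so their counts and medians are descriptions and carry no test. For comparison with every list count below, 51.8% of all genes were below 0 and each tail held 5.01% of ranked genes. Of 37 lists with at least 3 ratios, 28 had a median log2 ratio within 0.05 of 0. The other 9 were general stress, a-specific, seripauperin, α-specific and respiratory chain genes on the lower side, and hexose transporter, sulfate assimilation, small RNA and histone genes on the higher side. In no band of expression level did the median of all genes lie beyond 0.04 of 0.

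**Figure D4:**
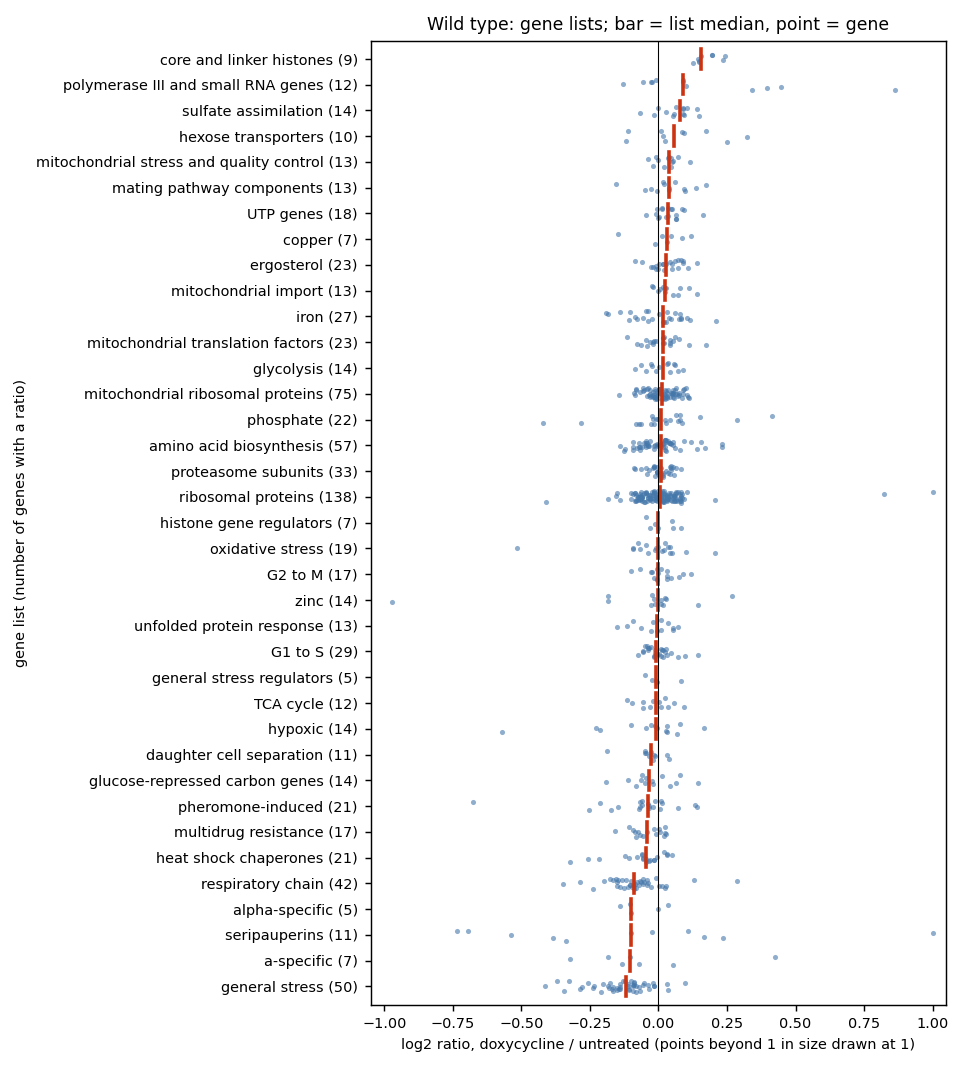
Log2 ratio of doxycycline to untreated in wild type for 37 gene lists, sorted by their median. Each point is a gene, with the number of genes with a ratio beside the list name, and the red bar is the list median, from -0.12 for general stress to 0.15 for histones. Points beyond 1 in size are drawn at the edge.

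Zinc homeostasis was examined because of *ZRT1*. The 14 genes of the list had a median log2 ratio of 0.00, with 7 above and 7 below 0, against 51.8% of all genes below 0, and *ZRT1* was the only member with intervals apart. Of the other plasma membrane transporters, *ZRT2*, of lower affinity for zinc, was at 283 and 249 FPKM (-0.19, error 0.20), and *FET4*, which carries iron, copper and zinc, at 47.2 and 47.7 FPKM (0.02). *ZRT3*, which exports zinc from the vacuole, had a ratio of 0.03 and *ZRC1*, which imports it there, -0.02. *ZAP1*, the activator that switches these genes on and also its own target, was at 14.3 and 14 FPKM (-0.02, error 0.22). *ADH4* (0.01), *ZPS1* (-0.03), *DPP1* (0.02) and *VEL1* (0.01), which are induced by low zinc, were all within 0.05 of 0, and *ZRG8*, at 4.79 FPKM, was at -0.18 (error 0.24). Among the membrane proteins of zinc homeostasis *IZH2* was at -0.01, *IZH1* at 0.14 and *IZH4* at 0.27, so only *ZRT1*, *ZRT2*, *ZRG8*, *IZH1* and *IZH4* differed by more than 0.1. The zinc enzymes of ethanol metabolism *ADH1* (-0.01) and *ADH3* (0.02) did not move by more than 0.02.

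The zinc response element, to which Zap1 binds, was read from the R64 genome as ACCTTNAAGGT, a palindrome, in the 500 bases before each start codon. It was found for 9 of 5842 protein-coding genes with a ratio (0.154%), and of the zinc list for *ZRT1* alone. This window of 500 bases was added after the data were seen. In the planned window, 250 bases before to 50 after the start codon, 5 genes carried the element. All 5 were below 0, with a median log2 ratio of -0.04, and *ZRT1* was again the only one of the zinc list. The 9 matches are printed below in 29 bases each, 5′ to 3′ on the strand of the gene, with the element in capitals, because they set the 1 gene that fell beside genes with the same letters.
ZRT1, chrVII:20765-20793, strand +: acatatttgACCTTGAAGGTcatggaaag
FMP21, chrII:743018-743046, strand -: tctatctgaACCTTCAAGGTacgcaccgt
ZRG17, chrXIV:699496-699524, strand -: aaatgatgaACCTTGAAGGTatttttgtt
MCD4, chrXI:140776-140804, strand -: gaaaaaaaaACCTTAAAGGTaaaaagaac
YNR040W, chrXIV:699496-699524, strand +: aacaaaaatACCTTCAAGGTtcatcattt
PCD1, chrXII:442965-442993, strand -: gttacatatACCTTAAAGGTcgatttaaa
TEX1, chrXIV:169661-169689, strand +: caaagcataACCTTGAAGGTtaacattat
PAN1, chrIX:370157-370185, strand -: atctgttaaACCTTAAAGGTaggtgctca
RTC4, chrXIV:169661-169689, strand -: ataatgttaACCTTCAAGGTtatgctttg

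The matches upstream of *ZRG17* and *YNR040W* are the same site read from either strand, as are those of *TEX1* and *RTC4*. *ZRG17*, which with Msc2 carries zinc into the endoplasmic reticulum, was at 34.1 and 33.2 FPKM (-0.04, error 0.21). The ratios of *FMP21* (-0.09), *MCD4* (-0.04), *YNR040W* (-0.01), *PCD1* (-0.01), *TEX1* (-0.01), *PAN1* (0.00) and *RTC4* (0.02) lay within 0.1 of 0. *ZRT1* thus stood apart from the 8 other genes that carry the exact element, whose ratios spanned -0.09 to 0.02. A match is not proof of a bound site, and elements that differ from these letters were not searched.

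Iron and copper genes showed no shared shift. The 27 iron genes had a median log2 ratio of 0.02 (the mean was below 0), with 12 below 0, none in either tail among the 15 that were ranked, and none beyond its error. The high-affinity system, *FET3* (multicopper ferroxidase) at 147 and 155 FPKM (0.07, error 0.20) and its permease partner *FTR1* at 194 and 202 FPKM (0.06, error 0.20), was slightly above 0. Of the members with the largest ratios for their error, *FRE3*, a metalloreductase, was at -0.18 (error 0.24), *FIT1*, a cell wall mannoprotein, at -0.19, *HMX1*, the haem oxygenase, at 0.21 (error 0.28), and the iron-sulfur scaffolds *ISU1* and *ISU2* at -0.14 and 0.12. Aft1 sites (TGCACCC, either strand, 500 bases upstream) lay before 21 of the 27 genes and before 2.31% of all, and those 21 genes had a median of 0.02. This window too was added after the data were seen. In the planned window of 250 and 50 bases the sites lay at 12 of the 27 genes, with a median of 0.03, and at 1.28% of all. The 7 copper genes with a ratio had a median of 0.03, from *CRS5* (metallothionein) at -0.15 to *CUP2* (copper-sensing regulator) at 0.12, with the copper transporter *CTR1* at 0.05. The metallothionein copies *CUP1-1* and *CUP1-2* were listed at 0.

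Phosphate genes had a median of 0.01 (22 genes, 11 on each side of 0), but their extremes were wide. *PHM8* was the lowest, and *SPL2*, a regulator of low-affinity phosphate uptake, the highest, at 7.7 and 10.2 FPKM (0.41, error 0.32). The transporter *PHO84* (0.07) and the secreted phosphatase *PHO5* (0.08), targets of Pho4, were above 0 by less than 0.1.

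General stress genes were lower with doxycycline as a group. Of the 50 genes of the list, 47 were below 0 (51.8% of all genes were) and the median log2 ratio was -0.12, a change of -7.81%. No member had intervals apart, but 9 were lower by more than their error (1.49% of all genes) and none higher, and of the 34 ranked members 16 were in the low tail (5.01% of ranked genes) and none in the high tail. Each of the 6 functional classes in the list had a median below 0, from -0.06 for 11 genes of trehalose and glycogen metabolism to -0.16 for 4 chaperone genes.

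The members with the largest ratios for their error were *SPI1*, *DDR2*, *HSP30*, *GPX1* and *SSE2*. *SPI1*, a cell wall protein induced in stationary phase, was at 376 FPKM (301 to 451) untreated and 291 (232 to 349) with doxycycline (-0.37, error 0.20). *DDR2*, a multistress protein, was at 1029 (797 to 1261) and 811 FPKM (627 to 996), a ratio of -0.34 (error 0.23). *HSP30*, which restrains the plasma membrane proton pump, was at 138 and 113 FPKM (-0.28, error 0.20). *GPX1*, a glutathione peroxidase, had the lowest ratio of the list, -0.41 (error 0.31), at 9.98 and 7.49 FPKM, and *SSE2*, a nucleotide exchange factor of Hsp70, was at 31.5 and 26.7 FPKM (-0.24, error 0.21). The conditions' intervals overlapped for all 5.

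Apart from *DDR2*, the most abundant members were closer to 0. *HSP12*, a small membrane-stabilising heat shock protein, was at 5015 and 4657 FPKM (-0.11, error 0.21). *GRX1*, a glutaredoxin, was at 1118 and 1051 FPKM (-0.09) and *YGP1*, a secreted glycoprotein, at 765 and 673 FPKM (-0.18, error 0.21). *CTT1*, the cytosolic catalase and a classic Msn2 and Msn4 target, was at 13.6 and 11.6 FPKM (-0.24, error 0.23), *HSP26* at 142 and 125 FPKM (-0.18) and the disaggregase *HSP104* at 56.1 and 50.7 FPKM (-0.14). The 3 members above 0 were *GSY1* (glycogen synthase, 0.10), *SOD2* (mitochondrial superoxide dismutase, 0.03) and *DDR48* (0.03). The regulators were near 0, with *MSN2* at 0.08, *MSN4* at -0.02, and the kinases *RIM15* at -0.01 and *YAK1* at -0.05.

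The stress response element AGGGG, on either strand, lay within 500 bases upstream of 47 of the 50 genes and of 34.2% of the 5842 protein-coding genes. In the window of 250 bases before to 50 after the start codon it lay at 37 members, with a median log2 ratio of -0.11, and not at 13, with a median of -0.13. With 500 bases, a window added after the data were seen, the order was the opposite. The 47 genes had a median of -0.12 and the few without the element -0.05. The order thus depended on the window. Sites of *DDR2* and *SPI1*, the members with the lowest ratios above 100 FPKM, are printed with the element in capitals, and 1 site of *HSP12*, the most abundant member, for comparison.
DDR2, chrXV:231987-232015, strand -: tgttcttctaatCCCCTttctctcctaaa
DDR2, chrXV:231942-231970, strand -: tcttcttcttttCCCCTgtttccattttt
SPI1, chrV:468093-468121, strand +: atgacgttccttCCCCTcacccctcggct
HSP12, chrVI:106867-106895, strand +: aacgtagtaaagAGGGGaaaaggaaaagg
In the window of 500 bases, all genes with the element had a median log2 ratio of -0.01, against 0.00 for those without it. Of the genes with it, 57.2% were below 0. Of the 1456 ranked genes that carry it 94 (6.46%) were in the low tail, against 5.02% of all ranked genes with a promoter read.

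Heat shock chaperones, the targets of Hsf1, showed a smaller shift. Of 21 genes 17 were below 0 (51.8% of all genes were), with a median of -0.04. Against 5.01% of all ranked genes, 3 of the 18 ranked members were in the low tail. These were *HSP82*, the inducible Hsp90, at 46 FPKM (36.8 to 55.2) and 36.7 (29.3 to 44.1), a ratio of -0.32 (error 0.20), the Hsp40 *SIS1* at 192 and 165 FPKM (-0.22, error 0.20) and the sorting factor *CUR1* (-0.26, error 0.26). The constitutive Hsp90, *HSC82*, was at 543 and 520.3 FPKM (-0.06), and the chaperonin *HSP10* was the highest member at 0.05. Oxidative stress genes (19, median 0.00), the unfolded protein response (13, median -0.01) and proteasome subunits (33, median 0.01) were centred on 0. Their extremes were *SRX1* (-0.52, error 0.62, 2.75 FPKM untreated) and *OYE3* (0.21) for oxidative stress, *HAC1* (-0.15) and *HRD1* (0.07) for the unfolded protein response, and *PRE9* (-0.09) and *RPN10* (0.08) for the proteasome. Multidrug resistance genes (17, median -0.04) ranged from *PDR15* (-0.16) to *PDR1* (0.03), and *PDR5*, the main drug efflux pump of yeast, was at 131 and 133 FPKM (0.02, error 0.21).

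Respiratory chain genes encoded in the nucleus were also lower as a group. Of 42 genes 36 were below 0 (51.8% of all genes were), with a median log2 ratio of -0.09. All 15 subunits of the ATP synthase were below 0, as were 8 of 9 of the cytochrome bc1 complex, 7 of 9 of cytochrome oxidase and 5 of 7 of the NADH and succinate dehydrogenases. Of the 27 ranked members 7 were in the low tail and 2 in the high tail (5.01% of ranked genes in each). Many subunit genes are short, and the 30 members of at least 300 bases had a median of -0.08 with 24 below 0. The lowest ATP synthase subunits were *ATP19*, at 2413 and 1979 FPKM (-0.29, error 0.21), and *ATP20*, at 452 and 383 FPKM (-0.24, error 0.21). The subunits of its catalytic core, *ATP1* (-0.07) and *ATP2* (-0.07), were closer to 0.

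The cytochrome c isoforms lay on opposite sides of 0, each by more than its error. For cytochrome oxidase subunit 5, the aerobic form was near 0 and the hypoxic form lower by less than its error. Of the cytochromes c, *CYC1*, the main aerobic form, had a ratio of 0.29 (error 0.23), and *CYC7*, the form kept for low oxygen, went from 19.6 to 15.4 FPKM (-0.35, error 0.31). Of cytochrome oxidase subunit 5, the aerobic *COX5A* was at 249.8 and 254 FPKM (0.03) and the hypoxic *COX5B* at 390.2 and 339.9 FPKM (-0.20, error 0.21). *ANB1*, the hypoxic form of the translation factor eIF5A, was at 17.3 and 14.8 FPKM (-0.23, error 0.28). The hypoxic list as a whole did not follow, with 14 genes at a median of -0.01, 8 of them below 0, the repressor *ROX1* at -0.04 and its target *HEM13* at 0.03. The lowest of these was *DAN1* (-0.57) at 0.391 FPKM and the highest *PAU23* (0.17). Seripauperins, which share much sequence, had 11 ratios among 24 genes, from *PAU15* (-0.73) and *PAU5* (-0.69) to *PAU2* (0.23) and *PAU10* (1.11, at 0.0666 FPKM).

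**Figure D5:**
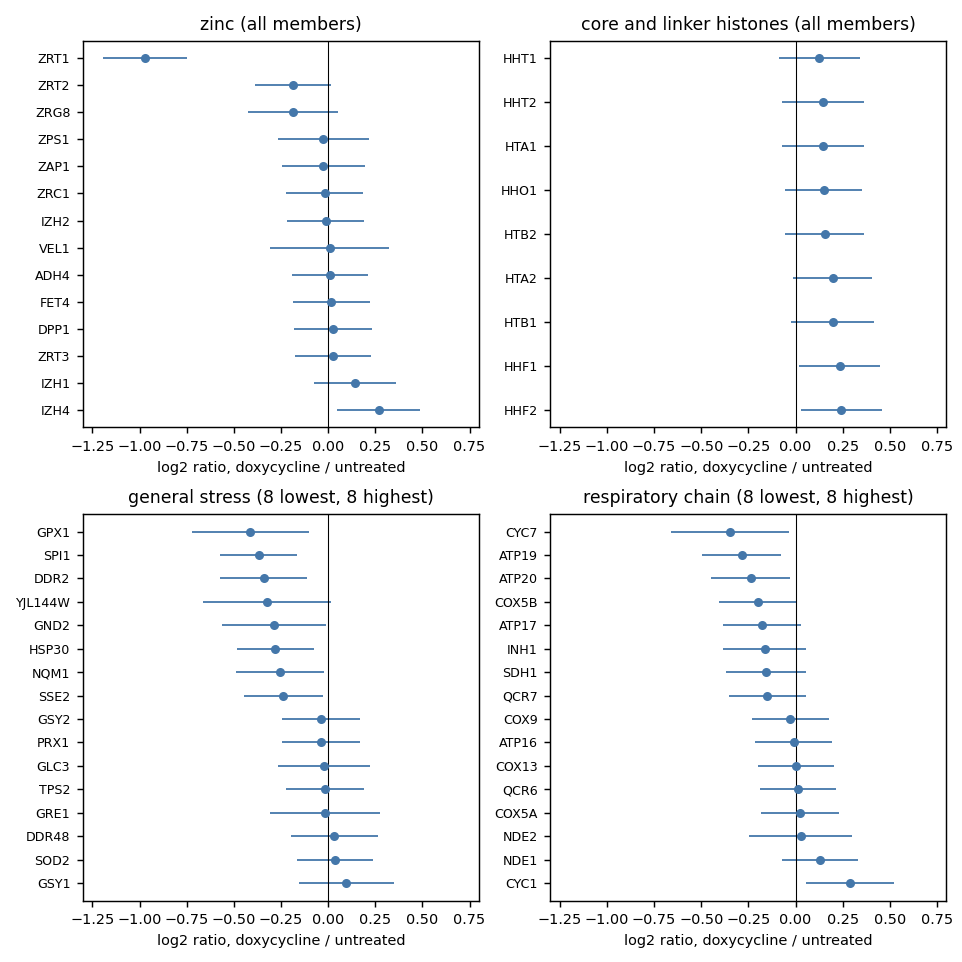
Log2 ratios of doxycycline to untreated in wild type, with the error derived from the deposited intervals as bars, for all 14 zinc and all 9 core and linker histone genes and for the 8 lowest and 8 highest general stress and respiratory chain genes. *ZRT1* alone lies far from 0, the 9 histone genes lie between 0.13 and 0.24, and most bars cross 0.

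Genes for mitochondrial gene expression, the process that tetracyclines can act on, were centred on 0. The mitochondrial genome itself could not be followed. All 55 of its entries, among them *COX1*, *COX2*, *COX3*, *COB*, *ATP6*, *ATP8*, *OLI1* and *VAR1*, were listed at 0 in every condition of both strains. The 75 nuclear genes of the mitochondrial ribosome had a median log2 ratio of 0.01 and ranged from *RSM27* (-0.15) to *PET123* (0.11). The 23 translation factors and message-specific activators had a median of 0.02, from *AEP2* (-0.12) to *CBS1* (0.17), with the elongation factor *TUF1* at 206 and 212 FPKM (0.04, error 0.20). Protein import (13 genes, median 0.02, *TIM50* -0.02 to *MIA40* 0.14) and mitochondrial quality control and retrograde signalling (13 genes, median 0.04, *RTG3* -0.04 to *OMA1* 0.11) were slightly above 0, with 10 and 9 members higher, and none of these was beyond its error. *HSP60*, the matrix chaperonin, was at 194 and 192 FPKM (-0.02). The citric acid cycle (12 genes, median -0.01) ranged from *CIT1* (-0.12) to *IDH2* (0.09) and did not share the shift of the respiratory chain list.

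All core and linker histone genes had ratios above 0. The 9 genes had a median log2 ratio of 0.15, a change of 11.3%, all 9 were above 0 and all 9 were in the high tail, which holds 5.01% of ranked genes. The H4 genes, *HHF1* at 5372 and 6325 FPKM (0.24, error 0.21) and *HHF2* at 5430.1 and 6426 FPKM (0.24, error 0.21), were the highest and the only members beyond their error. The H2A genes were *HTA1* at 3725 and 4123 FPKM (0.15, error 0.22) and *HTA2* at 2321 and 2659 FPKM (0.20). The H2B genes were *HTB1* at 5248 and 6012 FPKM (0.20, error 0.22) and *HTB2* at 2485 and 2765 FPKM (0.15). H3 was lowest, with *HHT1* at 3741 and 4082 FPKM (0.13) and *HHT2* at 4004 and 4427 FPKM (0.14), and the linker histone *HHO1*, at 197 and 219 FPKM, had a ratio of 0.15. The 2 copies of each core histone are close in coding sequence, so reads may have been divided between them and the copies are not independent. The intervals of the conditions overlapped for every histone gene.

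The H2A variant *HTZ1*, made outside S phase, was higher like the core histones, at 287 and 326 FPKM (0.19, error 0.21). It stood at position 35 from the top of the ranked genes, in the high tail. The centromeric variant *CSE4* was at -0.10. Other groups of cell cycle genes were centred on 0. The regulators that act on histone promoters (7 genes) had a median of 0.00 and ranged from *RTT106* (-0.04) to *HIR1* (0.08). The 29 genes of the G1 to S transition, which are transcribed just before or with the histones, had a median of -0.01, from *RFA3* (-0.07) to the cyclin *PCL1* (0.14), and ribonucleotide reductase *RNR1* was at 267 and 267 FPKM. The 17 genes of G2 to M had a median of 0.00, from *MOB1* (-0.10) to *BUD8* (0.12), and the 11 of daughter cell separation -0.03, from *DSE4* (-0.19) to *CTS1* (0.04). MBF sites (ACGCGT, 250 bases before to 50 after the start codon) lay at 3.13% of promoters, whose genes had a median of -0.01.

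Mating genes were near 0 or slightly lower. The α-factor genes were *MF(ALPHA)1*, at 12098 and 11296 FPKM (-0.10, error 0.26), and *MF(ALPHA)2*, at 4465 and 4055 FPKM (-0.14, error 0.21). The α-agglutinin *SAG1* was at 1207 and 1122 FPKM (-0.11), *STE3* at 563 and 562 FPKM and *YLR040C*, the a-factor barrier protein, at 850.2 and 871 FPKM (0.03). The 7 a-specific genes, of which all but *MFA1* and *MFA2* were under 10 FPKM, had a median of -0.10, from *MFA1* (-0.32, error 0.69) to *ASG7* (0.43, error 0.41).

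Of the 21 pheromone-induced genes 15 were below 0 (51.8% of all genes were), with a median of -0.04. *FIG1*, a membrane protein of mating cells, was the lowest, at 11.7 FPKM (8.55 to 14.8) untreated and 7.32 (5.37 to 9.27) with doxycycline (-0.67, error 0.27). *PRM2* (-0.25, error 0.24), *PRM5* (-0.21, error 0.21), *PRM6* (-0.17) and *PRM8* (-0.15), pheromone-regulated membrane proteins, came next, and *PRM10* was highest at 0.14. *FUS1*, the usual reporter of the pathway, was at 51 and 51.5 FPKM (0.01, error 0.21), the arrest factor *FAR1* at -0.01 and the desensitiser *SST2* at -0.07. The components of the pathway (13 genes) had a median of 0.04, from the Gγ subunit *STE18* (-0.15) to the transcription factor *TEC1* (0.17). Pheromone response elements (TGAAACA, either strand, 250 bases before to 50 after the start codon) lay at 13 of the 21 genes and 7.43% of all, and *FIG1* had none in that window. Without *FIG1*, 14 of the other 20 were below 0.

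Genes of sulfate assimilation were slightly higher, with a median of 0.08, 11 of 14 above 0 and 3 below (51.8% of all genes were below). They ranged from *STR3* (-0.07) to *MET3*, ATP sulfurylase, at 497 and 551 FPKM (0.15, error 0.21). Of 11 ranked members 3 were in the high tail, against 5.01% of all ranked genes. Hexose transporters (10 genes) had a median of 0.06, with 8 above 0 and 2 below (51.8% of all genes were below). They were led among the well-expressed by *HXT2*, with *HXT3* at 0.09, *HXT1* at 0.02 and *HXT8* at -0.11. *HXT6* (0.32) and *HXT7* (0.09) are near-identical copies and uncertain. The 57 genes of amino acid biosynthesis had a median of 0.01, from *LYS1* (-0.14) to *MET6*, methionine synthase, at 1235 and 1448 FPKM (0.23, error 0.25). Within the list, 12 of 14 arginine and lysine genes were below 0 (median -0.06), against 51.8% of all genes. Of 10 branched-chain genes 7 were above (median 0.03). Each gene differed by less than its error except *LEU1*, isopropylmalate isomerase, at 406 and 476 FPKM (0.23, error 0.22). Gcn4 sites (TGACTCA, either strand, same window of 250 and 50 bases) lay at 2.79% of promoters, whose genes had a median of -0.03.

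Genes of growth and carbon use were centred on 0. The 138 ribosomal protein genes had a median of 0.00. Their extremes, *RPL22A* (-0.41, error 2.54) and *RPL28* (1.43, error 2.01), share loci with other listed genes and have wide errors. The *UTP* genes of ribosome assembly (18, median 0.03) ranged from *UTP9* (-0.05) to *UTP14* (0.16), glycolysis (14, median 0.02) from *TDH1* (-0.08) to *PDC5* (0.09), ergosterol synthesis (23, median 0.03) from *ERG28* (-0.09) to *ERG13* (0.14) and glucose-repressed carbon genes (14, median -0.03) from *SFC1* (-0.19, at 0.891 FPKM) and *PCK1* (-0.11) to *POT1* (0.14). Small RNA genes (12) had a median of 0.09 with a wide range, from *SNR14* (-0.13, error 0.43) to *SNR17A*, the U3 RNA, at 13.5 and 24.5 FPKM (0.86, error 0.34), whose locus overlaps *IRC13*. The levels of small RNA genes are also uncertain in libraries of polyadenylated RNA.

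Genes with other promoter elements had medians close to 0. In the window of 250 bases before to 50 after the start codon, the median log2 ratio was -0.03 for the 12 genes with a Pdr1 and Pdr3 site (TCCGCGGA, 0.205% of promoters), -0.01 for the 446 with a Yap1 site (TTACTAA, 7.63%) and 0.00 for the 71 with an Rpn4 site (GGTGGCAAA, 1.22%), against 0.00 for genes without each element.

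The wild-type values were set beside those of tetO-*GLN4*, where by design the same dose also shuts off *GLN4* and 31.1% of genes had intervals apart. In that strain *GLN4*, whose locus overlaps another listed gene, was listed at 0 FPKM untreated and 30.5 FPKM with doxycycline. Its shut-off could therefore not be checked in these values. The strains were normalised in separate tables, so each ratio is within its own strain and no test of the difference was made. *ZRT1* had a log2 ratio of -0.97 in wild type and -3.18 (error 0.24) in tetO-*GLN4*, where it was at 353 FPKM untreated and 39.1 with doxycycline. *YLR297W* had -0.67 and -1.54, *YPR157W* -0.51 and -2.63, *FMP48* -0.38 and -3.89, *FIG1* -0.67 and -4.24. Of the 20 lowest ranked genes of wild type, 12 were below 0 in tetO-*GLN4* and 11 of these had intervals apart, and of the 20 highest 14 were below 0 and 12 of these had intervals apart. A further 5 of the lowest and 4 of the highest had intervals apart in the higher direction, so 16 of 20 were apart in each set, against 33.5% of ranked genes. Among the lowest that were higher in tetO-*GLN4* with intervals apart, *FMP23* had -0.34 and 3.71, *CYC7* -0.35 and 2.38, *HSP82* -0.32 and 2.25, *YJL144W* -0.33 and 1.35 and *YBR285W* -0.30 and 1.16. In that strain 49.6% of all genes were below 0.

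Of the gene groups, histone genes had a median of 0.15 in wild type and -2.33 in tetO-*GLN4*, where all 9 were below 0. General stress genes had -0.12 and 0.03, with 24 of 50 below 0 in tetO-*GLN4*, and *DDR2* had -0.34 and 3.12. Respiratory chain genes had -0.09 and -0.45, heat shock chaperones -0.04 and 0.36, with *HSP82* at -0.32 and 2.25, and sulfate assimilation genes 0.08 and 0.54. Iron genes had 0.02 and 0.54, and amino acid biosynthesis genes 0.01 and 0.99. The 5 α-specific genes had -0.10 and -5.73, all lower with intervals apart in tetO-*GLN4*. The 7 a-specific genes had -0.10 and 1.13, with 0 below 0 and 3 higher with intervals apart in that strain. The treated tetO-*GLN4* cultures thus also differed in mating-type markers, and the shut-off of *GLN4* could not be checked. Both points limit every comparison of the strains made here, and most directly that for mating genes such as *FIG1*. The cause of the marker difference was not tested.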

How the data were processed

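Total RNA from 12 yeast cultures was made into stranded mRNA libraries and sequenced. The authors mapped reads with TopHat 1.4.0 to sacCer3 (R64) and ran Cuffdiff, which gave the deposited FPKM, 1 per gene and condition for 3 cultures, with each strain in its own table. Whether strand was used in counting is not given in the sources used here. The authors' tables of fold changes, p-values and q-values were not used. There are 0 columns of values per culture, so no replicate error, depth or p-value could be had.

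Log2 ratios were computed without a pseudocount for genes with status OK and FPKM above 0 in both conditions, with Python 3.11.15, pandas 2.3.3 and numpy 2.4.6. Promoters were read from R64, to which 6048 listed genes matched. The interval rule was run on simulated data with large planted changes and noise narrower than the deposited intervals. That run checked the calculation only and gives no error rate for these data. The named genes are all genes with intervals apart, the 10 highest and 10 lowest ratios at 10 FPKM or more and an unshared locus, the extremes of each list at 1 FPKM or more, all zinc, histone and α-specific genes, the 5 largest stress, iron and pheromone genes by ratio over error, the 4 most abundant stress genes, the mitochondrial genes, the strain markers and *GLN4*. Others were chosen after their values were seen. Members and lists were chosen with earlier results of these data known. Of the listed symbols only 1, *TSF1*, was not matched. The alternatives tried were pseudocounts of 1 and 0.1, FPKM minimums of 1 and 10, median centring, leaving out shared loci, weighting by FPKM, a 1.5-fold limit, ratios over 2 errors, 2-fold and intervals apart together, motifs on the forward strand and, added after the data were seen, a minimum length of 300 bases and a promoter window of 500 bases.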

Additional observations from a re-analysis of the deposited data

How the results depend on the processing

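No paired analysis was possible because the cultures of each condition are combined into 1 value, and for the same reason no culture could be left out. The 10 genes with intervals apart became 5 at 10 FPKM or more, 2 at 300 bases or more (added after the data were seen), and 24 with the log2 ratio over 2 errors in place of the intervals. The 74 genes at least 2-fold apart became 41 at 1 FPKM or more, 17 at 10 FPKM or more, 47 without shared loci, 36 with a pseudocount of 1, 34 at 300 bases or more and 169 at 1.5-fold. Other alternatives left both counts within 1.5 times. The median of all genes and of each of the 37 lists moved by less than the median error of its own genes under every alternative run. That limit is wide. The median error was at least 0.20 in every list, and the largest list median, of the histones, was 0.15. A list shift could vanish within this limit, so it cannot show that a shift is stable. The largest move was 0.24, of the seripauperins, whose median error was 0.77. Weighting by FPKM changed the sign of 13 list medians, a minimum of 10 FPKM that of 2 (phosphate genes and seripauperins), leaving out shared loci that of 2 (oxidative stress and ribosomal protein genes) and centring that of 3 (zinc, oxidative stress and G2 to M genes). The general stress, respiratory chain, histone and sulfate assimilation medians kept their sign under all of these. General stress stayed between -0.14 and -0.11 and the respiratory chain between -0.10 and -0.08. Histones stayed between 0.15 and 0.19 and sulfate assimilation between 0.07 and 0.08. The log2 ratio of *YNL067W-B* went from 1.36 to 0.90 with a pseudocount of 1.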

Other observations

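36 genes were at 0 in 1 wild-type condition and above 0 in the other, 14 without doxycycline and 22 with it, at up to 27.4 FPKM in the other condition, and 21 of them were under 300 bases. They have no ratio. *TEF1*, *TEF2*, *TDH3* and *PDC1*, which are highly expressed genes of translation and glycolysis, had the status HIDATA and were left out.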
